A study of Mus musculus with 4 samples.

Results

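The genes described here are 10 human genes that mark blood monocytes, namely S100A8, S100A9, S100A12, FCN1, VCAN, LYZ, MNDA, IGSF6, CD36 and MRC1, out of 33538 human genes counted. In this order, they carry the identifiers ENSG00000143546, ENSG00000163220, ENSG00000163221, ENSG00000085265, ENSG00000038427, ENSG00000090382, ENSG00000163563, ENSG00000140749, ENSG00000135218 and ENSG00000260314. They were followed in the human immune cells of humanised mice by droplet-based scRNAseq, which tags every transcript it captures with a molecular barcode (a unique molecular identifier, UMI) and thus counts molecules. Cell barcodes with over 50% of their UMIs on human genes were taken as human (18106 of 22830 barcodes), and 17021 of these were kept after quality control, of which 255 were monocyte-like and 15384 lymphocyte-like. The question was whether a lower level of these genes in the blood after spinal cord injury (SCI) came with fewer monocyte-like cells, with a lower level in each of them, or with both.

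S100A8 and S100A9 form calprotectin, a calcium-binding complex that myeloid cells hold in their cytoplasm and release at sites of injury, where it acts as an alarmin, a danger signal read by receptors such as TLR4. Human neutrophils carry the same alarmins, so that these genes alone do not tell a monocyte from a neutrophil. Classical monocytes express FCN1, VCAN, LYZ and CD36 together with the alarmins, and MRC1 is better known from macrophages and dendritic cells.

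There were 4 libraries, 1 per condition, from naïve blood, sham blood, SCI blood and SCI spinal cord. All hosts were huNSG-SGM3 mice on the NOD.Cg background with the alleles Prkdcscid and IL2rgtm1Wjl, which leave them without functional lymphocytes of their own, whereas their own myeloid cells remain. They carry the transgene Tg(CMV-IL3,CSF2,KITLG)1Eav/MloySzJ, from which the CMV promoter drives human IL3, CSF2 and KITLG. Human myeloid cells thus grew under transgenic human cytokines in every group, naïve included. The hosts had been irradiated as pups and engrafted with human CD34+ cells from cord blood, and the label gives an age of 15 weeks for each library. Sham mice had a T9 laminectomy and SCI mice a contusion at T9, and both were sampled 7 days later. Naïve and sham hosts were male, whereas the SCI libraries were pooled from male and female hosts, so that host sex and injury cannot be told apart. Live human CD45+ cells were pooled from several animals and sorted, and the cord cells were first freed with papain and enriched on magnetic beads, so that tissue and preparation cannot be told apart either. With 1 library per condition there was no test between conditions, and all intervals are at 95% and cover counting error only.

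The libraries held 34161760 (naïve), 36007208 (sham), 36487994 (SCI blood) and 4206461 (SCI cord) UMIs, and the human cells kept numbered 6324, 4648, 5931 and 118. Their median depth was 3697.5, 5232, 4655 and 9331 human UMIs. No 2 libraries shared more than 10 cell barcodes. The cord library thus had few but deep cells.

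The monocyte-like cells were found without the 10 genes. Clusters were built with these genes left out of the variable genes, and the cluster was named from 18 other monocyte markers. Of the 248 monocyte-like cells in blood, 100% had a UMI of LST1, 98.8% of CST3 and of CTSS, 97.2% of CYBB, 94.8% of CD68 and 89.9% of SPI1, the transcription factor of myeloid cells. CD14, the co-receptor for lipopolysaccharide, had a UMI in 52.4% and CSF1R, the receptor for macrophage colony-stimulating factor, in 25.4%. Among the 13 neutrophil markers, MMP8 was at 0, ELANE was found in 1.21% of cells, CEACAM8 in 1.61%, MPO in 2.02% and FCGR3B in 4.44%, whereas CSF3R was found in 62.5% and PADI4 in 43.1%. The summed level of the monocyte markers was 14293, 13827, 12167 and 18740.0 CPM (counts per 1000000 human UMIs, ribosomal and mitochondrial genes left out) in naïve, sham and SCI blood and cord, and that of the neutrophil markers 773, 587, 644 and 1210.1 CPM. The cells thus carried most of the monocyte list and little of the neutrophil granule genes. At a finer cluster resolution of 1.5, however, the naming rule gave the same 255 cells and 7 more the name neutrophil, through CSF3R among the leading genes. The study itself names neutrophils and basophils, and no monocytes, among its clusters. Its cell names were not used here, so that the cells called monocyte-like here may be those it calls neutrophils.

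Monocyte-like cells were about as frequent in naïve and sham blood and several times rarer in SCI blood. They numbered 139 of 6324 cells in naïve blood (2.20%, exact binomial interval 1.85 to 2.59), 91 of 4648 in sham blood (1.96%, 1.58 to 2.40) and 18 of 5931 in SCI blood (0.303%, 0.180 to 0.479). Their share in SCI blood was 7.24-fold lower than in naïve blood (4.42 to 12.6) and 6.45-fold lower than in sham blood (3.86 to 11.4). The log2 ratio of sham to naïve blood was -0.17, with an interval of -0.56 to 0.22 that includes 0. In the cord, 7 of 118 cells were monocyte-like (5.93%, 2.42 to 11.8), a share 19.5-fold that of SCI blood (6.90 to 49.05). This value depends on how the cells are found. With a gate (a UMI of at least 6 of 10 other myeloid markers) in place of the cluster, the share was 26.3% in cord and 0.472% in SCI blood (55.6-fold), and without the filter on quality 19.6% and 0.421% (46.5-fold). SCI blood was lower than naïve and sham blood in both, by 4.89-fold and 5.47-fold with the gate and by 5.41-fold and 5.35-fold without the filter. Of the 31 gated cord cells, however, 19 came from the basophil- or mast-like cluster and 7 from the monocyte-like one. Of the 27 cord cells found without the filter, 13 and 7 did. The larger cord shares thus rest mostly on cells outside the monocyte-like cluster. A sort for human CD45 and a share of a pool do not give cell numbers per volume of blood, so that these shares also move with the numbers of lymphocytes.

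Over all human cells of a library, each of the 10 genes was lower in SCI blood than in naïve or sham blood. Among the alarmins, S100A9 stood at 1436 CPM in naïve, 1422 CPM in sham and 249 CPM in SCI blood, its partner S100A8 at 630.0, 679 and 128 CPM, and S100A12, a related alarmin also called calgranulin C, at 99.3, 87.2 and 16.2 CPM. In all 3 genes the naïve and sham values lie close together and the SCI value far below both. Among the secreted proteins, LYZ (lysozyme, which cuts bacterial cell walls) stood at 489, 464 and 83.8 CPM, FCN1 (ficolin-1, a lectin that starts the lectin pathway of complement) at 89.1, 90.8 and 20.0 CPM, and VCAN (versican, a proteoglycan of the extracellular matrix) at 48.9, 40.1 and 8.79 CPM. These followed the same order, with SCI blood lowest. MNDA, a nuclear protein of myeloid cells that interferon induces, stood at 73.2, 91.3 and 14.0 CPM, and IGSF6, a membrane protein of the immunoglobulin superfamily, at 67.5, 75.7 and 12.9 CPM. The uptake receptors CD36 (for lipids and lipoproteins) and MRC1 (the mannose receptor) stood at 19.3, 23.7 and 3.49 CPM, and at 43.8, 56.4 and 10.8 CPM.

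The log2 ratios of SCI to naïve blood ran from -2.61 (S100A12, -2.78 to -2.45) to -2.01 (MRC1, -2.23 to -1.81), with a median of -2.42. Thus 10 of 10 genes were at least 2-fold lower, against 4.41% of the 14553 human genes with at least 20 counts (3.32% were at least 2-fold higher). Against sham blood they ran from -2.76 (CD36, -3.14 to -2.41) to -2.18 (FCN1, -2.34 to -2.03), with a median of -2.45, and 10 of 10 were again at least 2-fold lower, against 3.38% of all genes (1.91% higher). Both comparisons share the SCI library. Sham and naïve blood differed little, with a median of 0.07 that equals the median of all genes (0.07) and a range of -0.28 (VCAN) to 0.37 (MRC1). Of the 10 genes, 0 differed by at least 2-fold there, while 2.85% of all genes were at least 2-fold lower and 2.21% higher.

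Within monocyte-like cells, the same genes differed far less between the blood libraries. S100A9 stood at 40632 CPM in naïve, 33598 CPM in sham and 29391 CPM in SCI monocyte-like cells, so that the log2 ratio of SCI was -0.47 against naïve (-0.51 to -0.43) and -0.19 against sham (-0.24 to -0.15). S100A8 stood at 17824, 15809.7 and 15149 CPM, with ratios of -0.23 (-0.29 to -0.17) and -0.06 (-0.12 to -0.00). By these pooled levels, both alarmins were highest in naïve and lowest in SCI blood, by less than 2-fold. The medians over single cells, given below, were not lower in SCI than in sham blood for either gene. S100A12 stood at 2830.5, 2092 and 1984 CPM, with ratios of -0.51 (-0.68 to -0.35) and -0.07 (-0.25 to 0.09), so that SCI and sham blood could not be told apart at this depth.

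LYZ stood at 13705, 10504 and 9527 CPM, with ratios of SCI to naïve of -0.52 (-0.60 to -0.45) and SCI to sham of -0.14 (-0.22 to -0.07). FCN1 stood at 2535, 2130.4 and 2395 CPM, and VCAN at 1392, 955 and 1060.5 CPM, so that for both genes sham and not SCI blood was lowest. MNDA (2034, 2059.99 and 1477 CPM) and IGSF6 (1842, 1702 and 1169 CPM) were lowest in SCI blood, with ratios of -0.46 (-0.66 to -0.27) and -0.65 (-0.88 to -0.44) against naïve and -0.48 and -0.54 against sham. CD36 stood at 536, 541 and 399 CPM. MRC1, at 1233, 1305 and 1311 CPM, had intervals that include 0 in every comparison of the blood libraries.

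**Figure D1:**
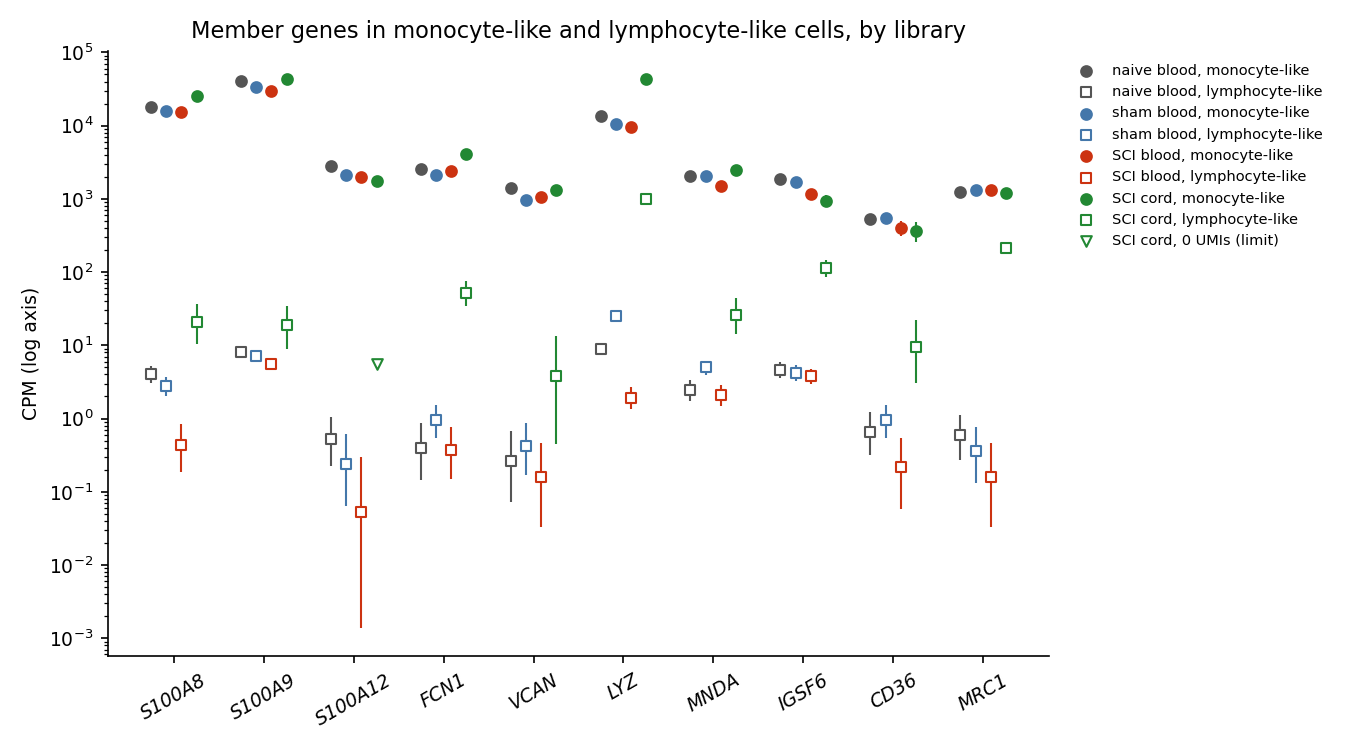
Level of the 10 genes (CPM, log axis) in monocyte-like cells (filled circles) and lymphocyte-like cells (open squares, all barcodes included) of each library, with bars for the exact Poisson interval and a triangle for the limit of a count of 0. The blood libraries lie close together in monocyte-like cells (S100A9 from 29391 to 40632 CPM), while in lymphocyte-like cells S100A8 is lowest in SCI blood.

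In monocyte-like cells, the median log2 ratio over the 10 genes was -0.44 for SCI against naïve (9 genes below 0), -0.11 for SCI against sham (7 below 0) and -0.21 for sham against naïve (7 below 0), beside medians of 0.05, 0.05 and 0.01 over all genes tested. In these comparisons 0 of 10 genes were at least 2-fold lower or higher, whereas 6.11%, 5.86% and 1.97% of all genes were at least 2-fold lower and 5.23%, 4.95% and 2.57% higher. The middle 80% of all genes spanned -0.76 to 0.80 for SCI against naïve, and the 10 genes lay inside that span. The SCI value rests on 18 cells, and the top cell for each gene held 29.7% of the S100A8 UMIs and 31.6% of the S100A12 UMIs there. Without the cell with most UMIs of each gene in each library, the median for SCI against sham became -0.33, and S100A12 went from -0.07 to -0.34. Taken as a ratio of medians over cells, it became 0.07. The direction between SCI and sham blood was thus not settled by these cells.

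Each gene's log2 ratio over all cells was then split into a part from the share of UMIs in monocyte-like cells, a part from the level inside them, and a rest from all other cells. Monocyte-like cells held 3.48% of the scaled UMIs in naïve blood, 4.15% in sham blood and 0.816% in SCI blood. This share depends on the number of these cells and also on their depth. Their mean depth was 1.59, 2.12 and 2.69 times that of all human cells of the library. The log2 ratio of the share of UMIs was -2.09 for SCI against naïve blood, beside -2.86 for the share of cells. Against sham blood it was -2.35 beside -2.69, and for sham against naïve blood 0.25 beside -0.17. For SCI against naïve blood, the median share part was -2.04 (-2.07 to -1.82 over the genes), the median level part -0.41 (-0.56 for IGSF6 to 0.09 for MRC1) and the median rest -0.03. S100A9 had a share part of -2.04, a level part of -0.45 and a rest of -0.04, which add up to -2.53. For SCI against sham blood the medians were -2.22, -0.10 and -0.12. The share part was larger in size than the level part for 10 of 10 genes in both comparisons, and the level part was lowest for MNDA (-0.42) and IGSF6 (-0.45) against sham. For sham against naïve blood, the share part (0.24) and the level part (-0.21) were of opposite sign and like size, which goes with the small differences over all cells.

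**Figure D2:**
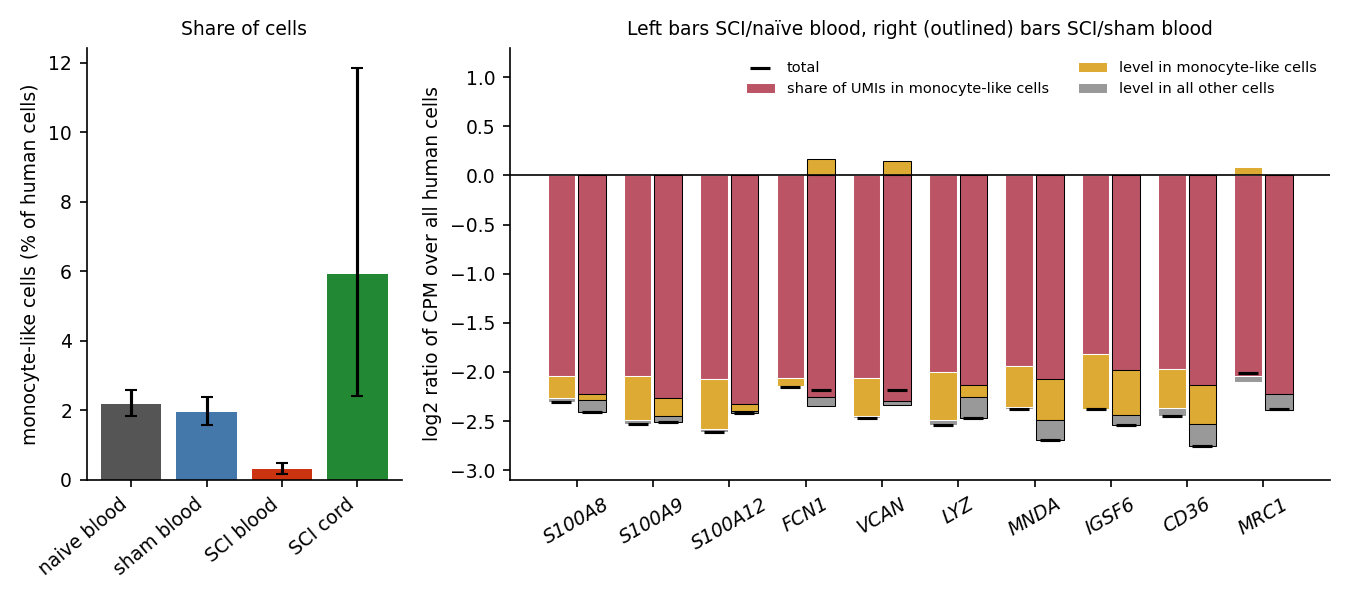
Left, monocyte-like cells in each library (percent of human cells, exact binomial intervals); right, per gene, the log2 ratio over all cells (black mark) stacked from share part, level part and rest, for SCI against naïve (left bars) and sham blood (outlined right bars). SCI blood has the lowest share of cells (0.303%). The share part, which is of UMIs and not of cells, lies between -2.33 and -1.82, while the level part lies between -0.56 and 0.16.

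The level part goes with other differences between the cells. The monocyte-like cells had a median depth of 5994 UMIs in the naïve library, 9564 in sham and 10328.5 in SCI blood. Their mitochondrial UMIs had a median of 6.56%, 5.60% and 6.12%, and their ribosomal UMIs of 6.06%, 6.30% and 9.13%. Markers of other cell types also differed in these cells. General T cell markers summed to 345, 687 and 559 CPM (6 of 6 detected in each library) and B cell markers to 243, 177 and 593 CPM (9, 7 and 9 of 9 detected). CD3E, a chain of the T cell receptor complex, was found in 7.91%, 16.5% and 33.3% of the cells. These shares are not corrected for depth, and the summed level of the T cell markers was highest in sham and not in SCI blood. Markers of conventional dendritic cells summed to 237, 250.0 and 393 CPM (4, 5 and 3 of 8 detected), with CD1C at 44.2, 44.6 and 96.9 CPM, while CLEC9A, XCR1 and FLT3 were at 0 in each. The immediate early gene FOS, a marker of stress during cell preparation, was at 228, 541 and 1511 CPM in them, and 4 of 8 genes of the RNA quality and stress list were at least 2-fold higher in SCI than in naïve monocyte-like cells, among them FOS (log2 ratio 2.73), DUSP1 (1.64) and JUNB (1.49), beside 5.23% of all genes. Sham monocyte-like cells had 2 of the 8 at least 2-fold higher than naïve ones, beside 2.57% of all genes. Of the naïve monocyte-like cells kept, 15 had been marked as doublets, against 0 in the other libraries. Marked barcodes with many genes had been removed beforehand, so that these counts leave them out. The part of depth, other cell types' genes, stress genes and doublets in the levels was not tested.

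Lists of genes of related function had median log2 ratios from -0.96 to 0.32 in SCI against naïve monocyte-like cells, and the stress list above had 1.15. The counts of lower genes stand beside 6.11% of all genes at least 2-fold lower in SCI than in naïve monocyte-like cells. Among alarmin receptors and inflammatory mediators, 8 of 10 genes had enough counts for SCI against naïve blood, with a median of -0.49. TLR4, which binds calprotectin, stood at 122, 137 and 85.5 CPM in naïve, sham and SCI blood, and its co-receptor CD14 at 369, 268 and 257 CPM, and neither was 2-fold lower. IL1B, whose product the inflammasome cleaves to the active cytokine, stood at 153, 144 and 28.5 CPM (log2 ratio -2.30, -4.08 to -1.17) and was the only one of the list at least 2-fold lower, on 5 UMIs in SCI blood. The 12 genes of classical monocytes had a median of -0.58. The 5 genes of non-classical monocytes with enough counts had a median of -0.92, with 5 below 0, and 2 were at least 2-fold lower. FCGR3A, which encodes CD16, stood at 108, 78.6 and 5.70 CPM (83, 67 and 1 UMIs). TCF7L2 had 57, 64 and 3 UMIs, a raw count from 139, 91 and 18 cells that is not scaled for their number. The 3 macrophage genes with enough counts had a median of 0.23, with 2 above 0 and 1 below. The 7 MHC class II genes had a median of 0.32 against naïve blood, and 0 of them were 2-fold lower or higher. IL3RA, the receptor chain for IL-3, of which all hosts made the human form, stood at 333, 324 and 108 CPM (-1.59 against naïve, -2.38 to -0.95), the only one of 3 receptor genes with enough counts that was at least 2-fold lower. These 3 genes had a median of -0.96, with 3 below 0. Against sham blood CSF2RB, the signalling chain shared by the IL-3 and GM-CSF receptors, was also lower (-1.31, -2.22 to -0.59), beside 5.86% of all genes. These values rest on 18 SCI cells and have no replicate.

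The 10 genes were unevenly spread over the monocyte-like cells. Per 10000 UMIs of a cell, S100A9 ran from 0 over a median of 241 to 1791 in naïve, from 0 over 148 to 1871 in sham and from 5.43 over 161 to 1050.3 in SCI blood. S100A8 ran from 0 over 95.4 to 904, from 0 over 57.0 to 1297 and from 0 over 57.2 to 715. The ranges overlap, the highest naïve and sham cells lie above the highest of the 18 SCI cells, and the medians of sham and SCI blood lie close together. S100A12 was without a UMI in 42 of 139, 31 of 91 and 4 of 18 cells, whereas IGSF6 was without one in 1, 0 and 0 cells and LYZ in 0, 1 and 0. S100A8 was without a UMI in 6, 4 and 1 cells and S100A9 in 2, 1 and 0. S100A12 was thus absent from many cells, whereas IGSF6 and LYZ were found in almost every cell. S100A8 and S100A9 were found in most cells, at widely different levels.

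Across monocyte-like cells of 1 library, the alarmins moved together. Spearman's rho between S100A8 and S100A9 per 10000 UMIs was 0.97 over the 139 naïve cells, 0.95 over the 91 sham cells and 0.94 over the 18 SCI cells, and between S100A9 and S100A12 it was 0.88, 0.90 and 0.85. S100A9 went less closely with VCAN (0.56, 0.55 and 0.42), FCN1 (0.44, 0.62 and 0.54) and CD14 (0.56, 0.58 and 0.58), and with CSF3R, the receptor for G-CSF, it was at 0.35, 0.62 and 0.17. With LYZ it was near 0 (0.13, 0.20 and 0.10), although LYZ went with VCAN (0.47, 0.63 and 0.45). IGSF6 and MRC1 lay at the other end, with rho of -0.30, -0.40 and -0.29 and of -0.20, -0.39 and -0.07 against S100A9. The MHC class II gene HLA-DRA, which presents peptides to CD4 T cells, ran against S100A9 (-0.80, -0.82 and -0.58), as did CST3 (cystatin C, a protease inhibitor; -0.53, -0.65 and -0.82) and CLEC10A, a lectin of dendritic cells (-0.43, -0.45 and -0.62). After thinning each cell to 1000 UMIs, rho with S100A9 was 0.94, 0.90 and 0.92 for S100A8 and -0.75, -0.71 and -0.57 for HLA-DRA. Other pairs held less well in some or all libraries. With S100A9, thinned rho was 0.15, 0.21 and -0.28 for CSF3R and -0.24, -0.32 and -0.11 for CLEC10A. For VCAN it was 0.52, 0.51 and 0.15, and for CD14 0.45, 0.22 and 0.62. LYZ with VCAN was then at 0.39, 0.38 and -0.07. Thinning also adds counting noise to genes with few UMIs, so that it cannot tell how far these weaker pairs depended on depth. Cells of 1 library share their animals, preparation and depth, and the values of a cell are parts of 1 total, so that these numbers are descriptions.

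**Figure D3:**
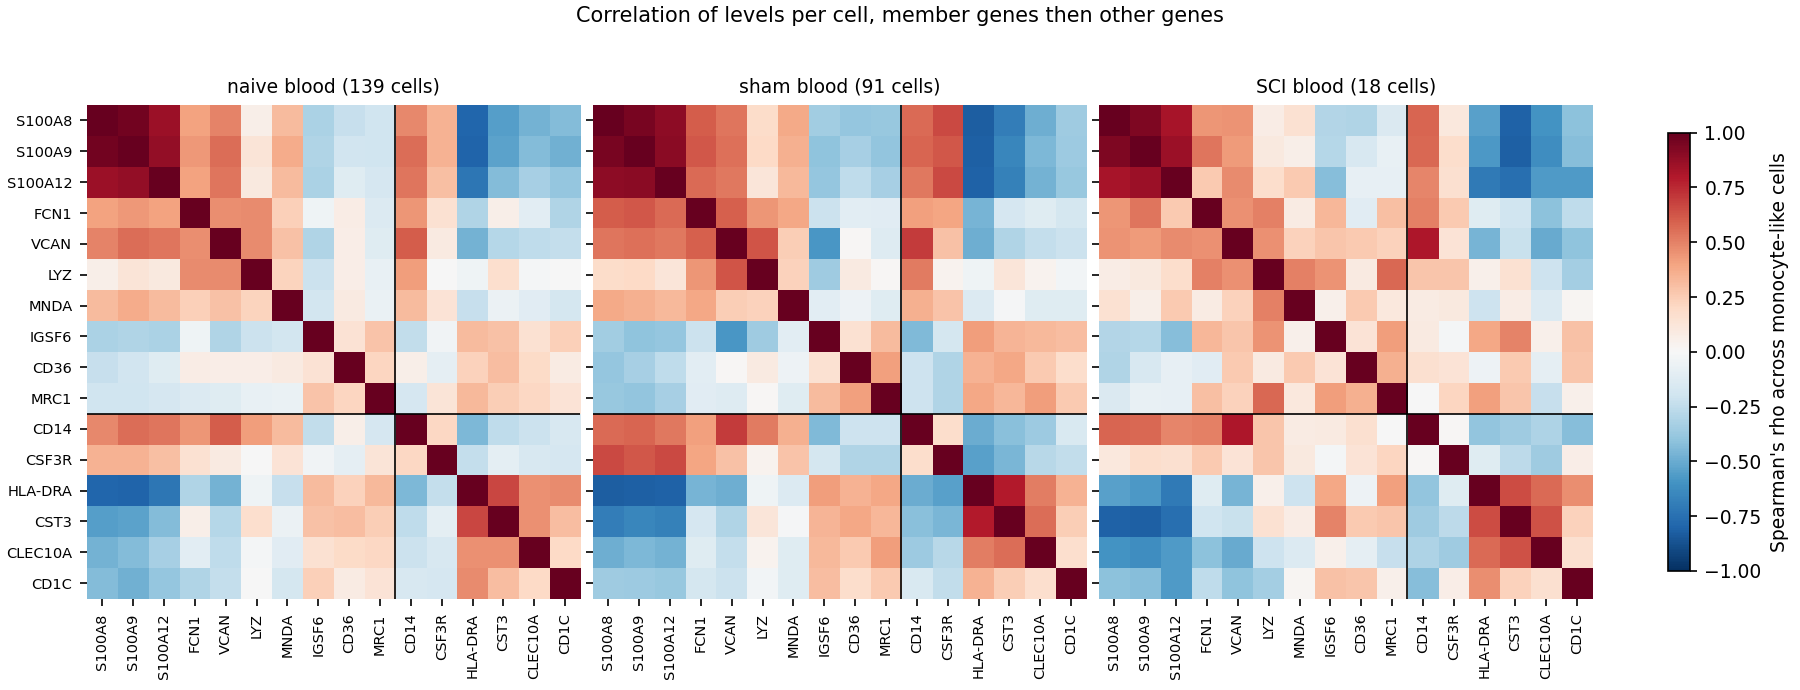
Spearman's rho between pairs of genes over the monocyte-like cells of naïve (139 cells), sham (91) and SCI blood (18), from values per 10000 UMIs. The alarmins S100A8, S100A9 and S100A12 form a block of high values (0.85 to 0.97 for the pairs with S100A9), while S100A9 and HLA-DRA are negative in each library (-0.82 to -0.58).

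Other genes followed the 10 across cell classes and libraries. Over 33 combinations of class and library, the highest Pearson correlations with the mean profile of the 10 genes (on log2 of CPM plus 10) were those of FPR1 (0.99), AC020656.1 (0.99), MCEMP1, CD300E, LRP1, P2RY13, GGT5, PLBD1, APOBEC3A and CD14 (0.98 each). FPR1, a receptor for bacterial formyl peptides, had 97.8% of its UMIs in monocyte-like cells and stood at 355, 252 and 205 CPM in those of naïve, sham and SCI blood. CD14 had 98.1% of its UMIs there. These combinations share libraries, and few of them hold monocytes, so that the correlation mainly separates monocyte-like cells from the rest.

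Nearly all UMIs of the 10 genes lay in the monocyte-like cells. In naïve blood they held from 95.1% (IGSF6) to 99.3% (S100A12) of a gene's UMIs and in sham blood from 93.2% (IGSF6) to 99.5% (S100A12). In SCI blood, where these cells were few, they held 73.7% of IGSF6 and 85.8% of MNDA, and from 92.7% (LYZ) to 99.7% (S100A12) of the others. Quality control kept from 86.2% to 93.0% of the genes' UMIs in naïve human barcodes, from 91.0% to 95.5% in sham and from 97.7% to 100% in SCI blood. The mouse barcodes held 49, 418 and 9 UMIs of the 10 genes.

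**Figure D4:**
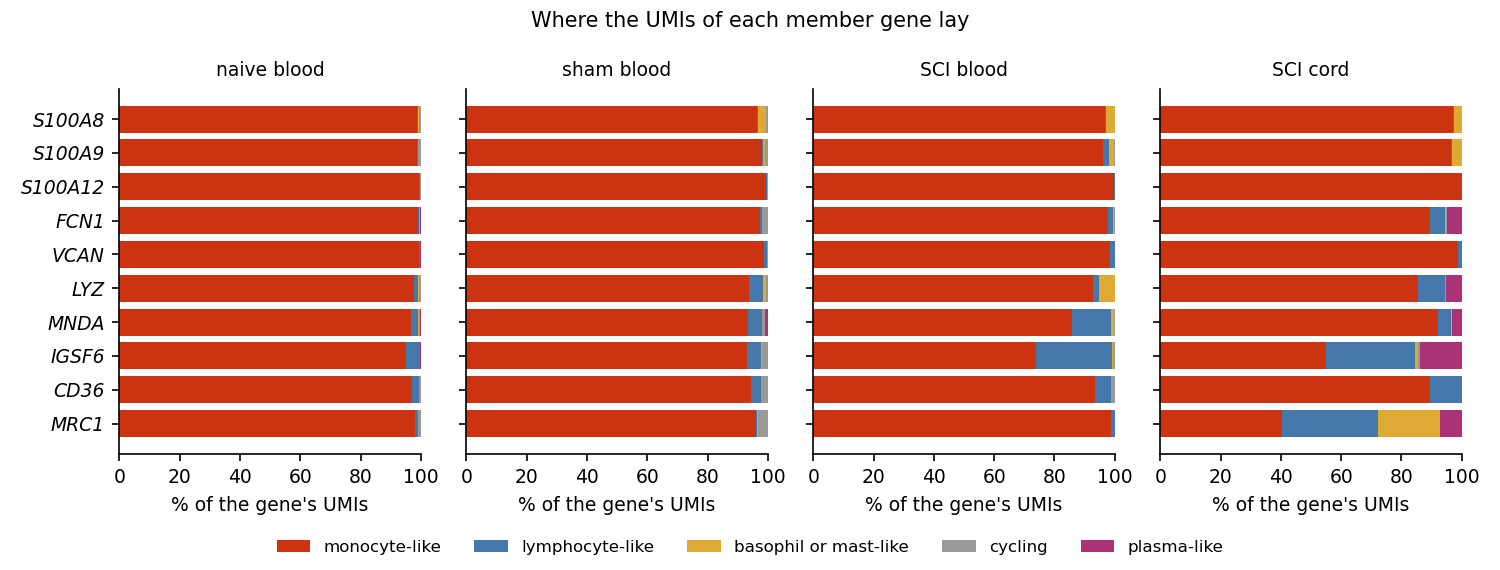
Percent of each gene's UMIs (over kept human cells) by cell class, as stacked bars, in each library. Monocyte-like cells hold most UMIs of the 10 genes in the blood libraries (lowest for IGSF6 in SCI blood, 73.7%), whereas in the cord 40.2% of MRC1 and 55.0% of IGSF6 lie in them.

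In lymphocyte-like cells the 10 genes together amounted to 30.4 CPM in naïve, 46.7 CPM in sham and 14.8 CPM in SCI blood, beside 84564, 70698 and 63863 CPM in monocyte-like cells. Of the 787 sham UMIs, 404 lay in 3 barcodes with 10 or more UMIs of these genes, and of the 460 naïve UMIs 40 lay in 2. Without such barcodes the sum was 27.8 CPM in naïve (25.2 to 30.5), 22.8 CPM in sham (20.6 to 25.2) and 14.8 CPM in SCI blood (13.1 to 16.6), so that sham was no longer above naïve blood and their intervals just overlapped. After thinning to 1000 UMIs, 2.13%, 1.74% and 1.11% of lymphocyte-like cells had a UMI of any of them (7.16%, 8.22% and 4.46% before thinning, at median depths of 3545, 5120 and 4606 UMIs). The next values also leave out these barcodes, all of the B-like clusters, and are given with exact Poisson intervals. S100A8 stood at 4.03 CPM in naïve (3.08 to 5.18), 2.80 CPM in sham (2.06 to 3.72) and 0.429 CPM in SCI blood (0.185 to 0.846). LYZ stood at 7.20 (5.91 to 8.69), 3.39 (2.57 to 4.40) and 1.93 CPM (1.35 to 2.67). For S100A8 the SCI interval lies below both others, and for LYZ it lies below that of naïve blood and just overlaps that of sham blood.

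S100A9, IGSF6 and MNDA differed less between the libraries in these cells. S100A9 stood at 7.996 (6.64 to 9.55), 7.09 (5.87 to 8.48) and 5.58 CPM (4.56 to 6.76), IGSF6 at 4.03 (3.08 to 5.18), 4.23 (3.30 to 5.33) and 3.76 CPM (2.93 to 4.74), and MNDA at 2.11 (1.45 to 2.99), 2.62 (1.90 to 3.52) and 2.09 CPM (1.49 to 2.86). Intervals of naïve and SCI blood overlap for all 3 genes. In the monocyte-like cells, S100A8 had 43.9, 47.1 and 51.5 UMIs for every 100 of S100A9 in naïve, sham and SCI blood. In lymphocyte-like cells it had 50.4 (36.4 to 69.1), 39.5 (27.6 to 55.8) and 7.69 (3.24 to 15.7). In SCI blood the ratio in lymphocyte-like cells, from 8 UMIs of S100A8 and 104 of S100A9, was thus below that in monocyte-like cells of the same library, while in naïve and sham blood the intervals include the monocyte ratio. For MNDA the UMIs lay mostly in B-like cells, at 7.48 CPM in naïve, 28.1 CPM in sham and 8.73 CPM in SCI blood, barcodes with 10 or more UMIs included.

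The hosts' own S100a9 was abundant in the operated mice. It had 5339 UMIs in the mouse barcodes of the naïve, 344169 of the sham and 170501 of the SCI blood library, and was found in 0.546%, 29.4% and 17.2% of human lymphocyte-like cells. Human S100A9 was at 5.02 CPM (2.92 to 8.03) in SCI lymphocyte-like cells with a mouse S100a9 UMI and at 5.70 CPM (4.57 to 7.04) in those without. In sham blood it was at 7.58 (5.41 to 10.3) and 6.82 CPM (5.40 to 8.51). In both libraries the intervals with and without the mouse gene overlap.

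**Figure D5:**
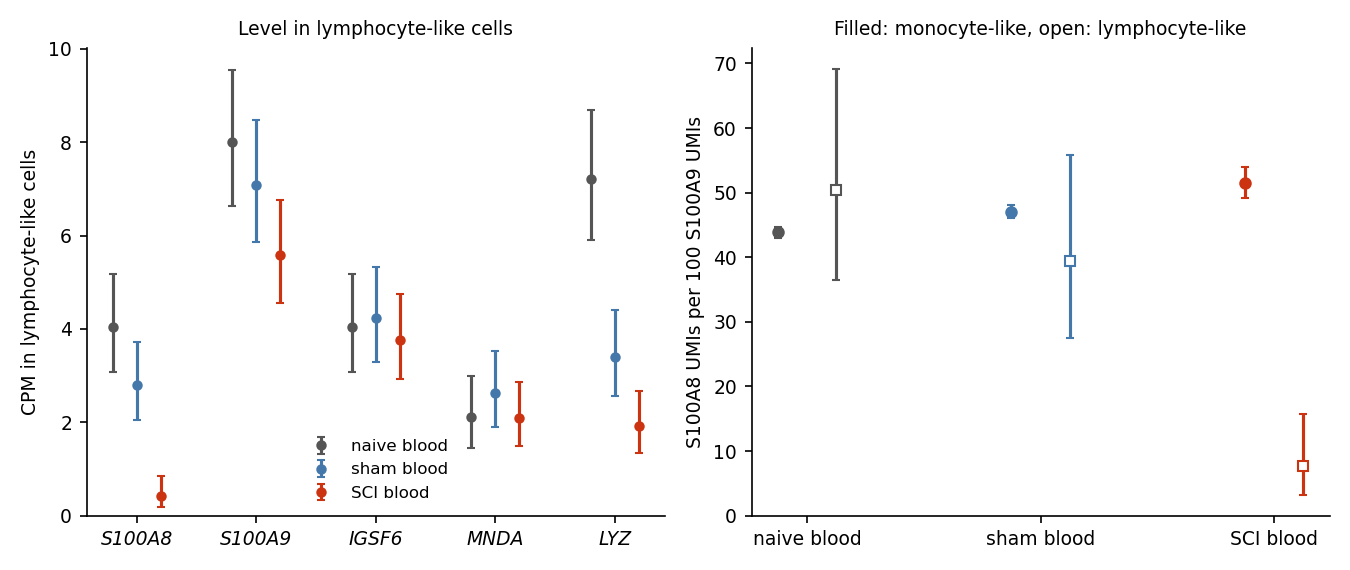
Left, level of S100A8, S100A9, IGSF6, MNDA and LYZ in lymphocyte-like cells of the blood libraries (CPM, exact Poisson intervals), without barcodes holding 10 or more UMIs of the 10 genes; right, S100A8 UMIs per 100 S100A9 UMIs in monocyte-like (filled) and lymphocyte-like cells (open) with binomial intervals. S100A8 is lowest in SCI blood (0.429 CPM), where the lymphocyte ratio (7.69) lies below the monocyte ratio (51.5).

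In the SCI cord all 10 genes were higher over all cells than in SCI blood, with log2 ratios from 3.60 (S100A12, 3.35 to 3.85) to 6.06 (LYZ, 5.99 to 6.14) and a median of 4.37. At least 2-fold higher were 10 of 10, against 13.8% of all genes (9.25% lower). S100A9 stood at 5006 CPM over all cord cells beside 249 CPM in SCI blood, and LYZ at 5598 CPM beside 83.8 CPM. The share part was the largest for S100A12 (3.75) and made up most of the alarmins' difference (3.47 of 4.54 for S100A8). For LYZ the share part was 2.73, the level part 1.64 and the rest 1.70. For MRC1 the rest (2.87) was larger than the share part (2.15).

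The 7 cord monocyte-like cells had a median of 19599 UMIs each. Per 10000 UMIs, LYZ was at 216, 264, 468, 501, 512, 531 and 543 in them, beside a median of 94.9 and a highest value of 350.04 in SCI blood, so that 5 of the 7 lay above all 18 SCI blood cells, although naïve cells reached 620. S100A9 was at 23.1, 131, 148, 462, 542, 609 and 1146, inside or just above the range of SCI blood. The lowest cell for S100A9 and S100A8 also had the lowest VCAN and LYZ. With 7 cells from 1 library, their level was not compared further with blood.

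In the cord the 10 genes were also found outside the monocyte-like cluster. Of the 353 MRC1 UMIs, 40.2% lay in monocyte-like cells, 32.0% in lymphocyte-like cells and 20.4% in the basophil- or mast-like cluster. A count of 10 or more UMIs of the 10 genes was reached outside the monocyte-like cluster by 3 cord cells of the B-like clusters, 6 of the basophil- or mast-like cluster and 1 plasma-like cell. In 2 of the B-like cells LYZ had 237 and 293 UMIs, MRC1 54 and 47, CLEC10A 50 and 82 and CD1C, a marker of dendritic cells, 27 and 71, while the B cell gene MS4A1 had 0 in both. The plasma-like cell had 315 UMIs of LYZ and 26 of MRC1. These cells, chosen after their values were seen, thus carried genes of dendritic cells under the name of another cluster. In the 6 basophil- or mast-like cord cells S100A9 had between 7 and 48 UMIs and CLC, a gene of eosinophils and basophils, between 19 and 362.

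In blood, a few cells of the basophil- or mast-like cluster carried the alarmins as well. All 46 UMIs of S100A8 in the naïve cluster lay in 2 of its 99 cells, all 376 in the sham cluster in 6 of 124 and all 76 in the SCI cluster in 2 of 136. These 2, 6 and 2 cells also held 43 of 59, 208 of 210 and 85 of 90 UMIs of S100A9, whereas the other cells of the cluster had 0 UMIs of S100A8 and 16, 2 and 5 of S100A9. Averaged over the whole cluster, S100A8 stood at 165, 655 and 156 CPM and S100A9 at 211, 366 and 184 CPM. In SCI blood the 2 cells held 2.77% of all S100A8 UMIs. FCN1 was at 0, 1.74 and 2.05 CPM in the cluster and VCAN and CD36 had 0 UMIs in all 3 libraries.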

How the data were processed

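Human CD45+ cells of 4 libraries (naïve, sham and SCI blood, SCI cord) were measured with 10x 3' chemistry. The authors ran Cell Ranger 3.1.0 on a joint GRCh38 and mm10 reference and deposited its raw UMI counts per gene and barcode. No other unit was used. The methods give technical replicates for SCI; here SCI blood and SCI cord have 1 library each. The 10 genes, the gene lists and the comparisons were chosen with earlier results of these data known, and the lists are used as descriptions.

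Human barcodes had over 50% human UMIs, and those beyond 3 median absolute deviations in UMIs, genes, mitochondrial or ribosomal percent were removed, as were barcodes with over 3000 genes that Scrublet marked (the highest scores, up to 0.8% per 1000 barcodes). Cells were clustered (2000 variable genes without the 10, scaled within library, 30 components, 15 neighbours, Leiden at 0.8) in scanpy 1.11.5. A cluster was named by the class with most markers among its 10 leading genes, so that names say what cells resemble, and a difference from the study's names can come from that. Counts were summed per library and class and scaled to CPM without ribosomal and mitochondrial genes. Ratios had 0.5 counts added and conditional binomial intervals, called means at least 2-fold, and genes with at least 20 counts entered the background. The split into parts swapped each factor over all 6 orders. Genes named are the 10, the lists' members, those most like the 10 in profile, and markers of cells outside the cluster, the last chosen after their values were seen. Calculations were tested on simulated data. The calculations used scipy 1.17.1 under Python 3.11.15 and, for TMM factors alone, edgeR 4.0.16. Alternatives are listed at the end. No human genome was used, so that no coordinates or sequences are given. The result of a gene of the classical monocyte list is not reported here.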

Additional observations from a re-analysis of the deposited data

How the results depend on the processing

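No paired analysis was possible because each condition had 1 library. Over all cells, the genes stayed lower in SCI blood and higher in cord under all alternatives run, among them TMM and median-of-ratios scaling, with medians of -3.06 to -2.35 (SCI against naïve), -2.74 to -2.41 (SCI against sham) and 4.29 to 5.68 (cord against SCI blood). The mean of CPM per cell gave -0.24 (sham against naïve), -3.06, -2.69 and 4.66, thinning to 1000 UMIs -0.27, -3.02, -2.74 and 4.88, and UMIs per cell not scaled for depth 0.41 (sham against naïve), -2.73 (SCI against sham) and 5.68 (cord). At least 90% human UMIs gave -0.070 for sham against naïve.

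Within monocyte-like cells sham against naïve was -0.10 as mean of CPM per cell, -0.10 after thinning, 0.55 unscaled, -0.49 with the gate of 10 markers and -0.41 as ratio of medians over cells. SCI against naïve was 0.38 unscaled and -0.70 with the gate. SCI against sham was -0.33 without the cell with most UMIs. The last and the ratio of medians were added after seeing the data, as were removing all marked doublets here and leaving out cells outside the cluster with 10 or more UMIs. Unscaled values are by construction not corrected for the depth of the cells, which was lowest in naïve blood.

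The gate gave shares of 2.58% (sham) and 26.3% (cord) and no filter on quality gave 19.6% (cord). Of 325 gated cells 62 came from the basophil- or mast-like cluster, and of 314 cells found without the filter 28. With the gate the level part was -0.48 (sham against naïve), -0.65 (SCI against naïve) and -0.80 (cord against SCI blood, share part 5.12), and at resolution 1.5 the last was 0.029 in place of 0.40. Without thinning, 7.16%, 8.22%, 4.46% and 22.4% (cord) of lymphocyte-like cells had a UMI. Without lymphocyte-like barcodes with 10 or more UMIs, an alternative added after seeing the data, the summed level was 22.8 CPM (sham) and 32.7 CPM (cord). Without the filter on low counts, genes at least 2-fold lower numbered 2320 in place of 414, 2648 in place of 642 and 2457 in place of 490 over all cells, and 1592 in place of 147, 1187 in place of 366 and 1064 in place of 366 in monocyte-like cells, in the order sham to naïve, SCI to naïve, SCI to sham.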

Other observations

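A few single cells in blood carried the genes under the name of another cluster. In sham blood, 2 cells of the B-like clusters had 172 and 188 UMIs of LYZ and 527 and 941 of CST3, with 0 of S100A8, S100A9 and FCN1 in both and 0 and 1 of the B cell gene MS4A1. In the cycling cluster, 1 naïve and 1 sham cell had 245 and 258 UMIs of S100A9, 77 and 56 of S100A8 and 36 and 64 of LYZ. They also had 16 and 55 of MKI67, a gene of dividing cells, 2 and 6 of the T cell gene CD3E and 0 of MS4A1. SCI blood had 0 cells with 10 or more UMIs of the 10 genes in the B-like or cycling clusters. These cells were noticed after the values had been seen. None of them had been marked as a doublet, but marked barcodes with many genes had been removed beforehand. The missing mark thus cannot tell whether these deep cells were doublets.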
